A study of Rattus norvegicus with 8 samples.

Results

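The postsynaptic density scaffolds and regulators are a list of 44 genes whose products build or control the protein mesh beneath the membrane of the receiving side of a synapse. A gene belonged to the set if it was on that list and at least 1 array feature carried its symbol in the platform annotation. This held for 39 genes, out of 14871 named genes and 34738 units (a unit is a named gene or an unnamed probe), and they had 80 features. Lrrtm1, Lrrtm2, Magi2, Iqsec1 and Iqsec2 had no feature under their symbol and were not analysed here.

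Excitatory synapses of hippocampal pyramidal and granule neurons sit on dendritic spines, and their glutamate receptors are held in place by layered scaffold proteins. In the upper layer, membrane-associated guanylate kinases of the Dlg family bind receptors and adhesion molecules. Dlgap proteins link them to Shank and Homer proteins in the deeper layer, which reach the actin of the spine, while calcium-dependent enzymes such as calcineurin act on the receptors and on this mesh.

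The samples were hippocampi of male Wistar rats of 13 weeks, all carrying a monopolar electrode aimed at the lateral hypothalamus of the right side. In the ICSS group (intracranial self-stimulation, in which a rat works for brief current trains), the animals were trained in 20 min sessions and then took 2500 trains. In the Sham group the operated animals were handled and placed in the same box without current, for 40 min in the last session. Sessions of 20 min and a recovery of 7 days are listed for both groups. Each group had 4 pools of the hippocampi from 3 rats on the electrode's side, each pool on its own array, so that single animals cannot be seen. Values are log2 ratios, with the pool in Cy5 over a common reference in Cy3. Per the sample labels that reference held hippocampus, thalamus and cortex of both groups, and per the series' design text it held hippocampus alone. The labels call the pools biological replicates.

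Pairs of arrays had correlations across features between 0.586 and 0.873. The lowest was that of ICSS replicate 3 with Sham replicate 4. Precision is limited by having 8 arrays. As a check of the tissue, the mean of 3 markers of field CA3 lay between 0.61 and 1.13 and that of 3 dentate granule cell markers between 0.70 and 1.01 over the 8 pools, above the reference. The mean of 9 thalamic markers lay between -0.99 and -0.65, below it. ICSS replicate 3 and Sham replicate 4 were also the highest and the lowest pool in the mean of 5 oligodendrocyte genes. The ICSS pool was highest at 0.39, with the other ICSS pools between -0.24 and 0.12. The Sham pool was lowest at -0.91, with the other Sham pools between -0.17 and 0.042.

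None of the 39 genes passed the threshold between ICSS and Sham pools (limma, adjusted p below 0.05 over all 34738 units), against 0.0461% of all units. At an unadjusted limma p below 0.05 there were 7 genes, 5 lower and 2 higher in ICSS pools, or 17.9% of the 39, against 12.6% of all units. The values leaned low: 27 genes had a lower and 12 a higher mean in ICSS pools, or 69.2% lower, against 47.2% of all units. The median difference was -0.059 on the log2 scale over the 39 genes and 0.0078 over all units. The median over the 39 genes was -0.098 without ICSS replicate 2 and -0.021 without ICSS replicate 3. With each feature as its own unit, the median over the 80 features of these genes was -0.025, and genes with many features weigh more in it. Leaving out single arrays left between 24 and 31 genes lower. ICSS replicate 3 had the lowest mean over the 39 genes among ICSS pools and Sham replicate 4 the highest among Sham pools, so leaving out both brings the groups closer by construction, a choice made after seeing the data. Without this pair 21 genes were lower and 18 higher, the mean difference was -0.010 in place of -0.055, and 5 genes had an unadjusted p below 0.05, 3 of them lower. Dlg1, Nlgn2 and Baiap2, all within 0.015 of 0, changed sign under at least 1 scaling of the arrays.

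In 7 genes the pools of the 2 groups did not overlap, which is 17.9% of the 39 genes, against 7.8% of all units. Of these, 6 were lower in ICSS pools (Ddn, Dbn1, Pick1, Shank3, Begain and Nlgn3), where the share of all units was 3.66%, and Dlg2 was higher, where it was 4.13%. They belong to different layers of the synapse and include a spine actin protein, a receptor trafficking protein, a deep scaffold and an adhesion molecule. The genes of the list were chosen with earlier results of these arrays known, so these shares are descriptions.

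**Figure D1:**
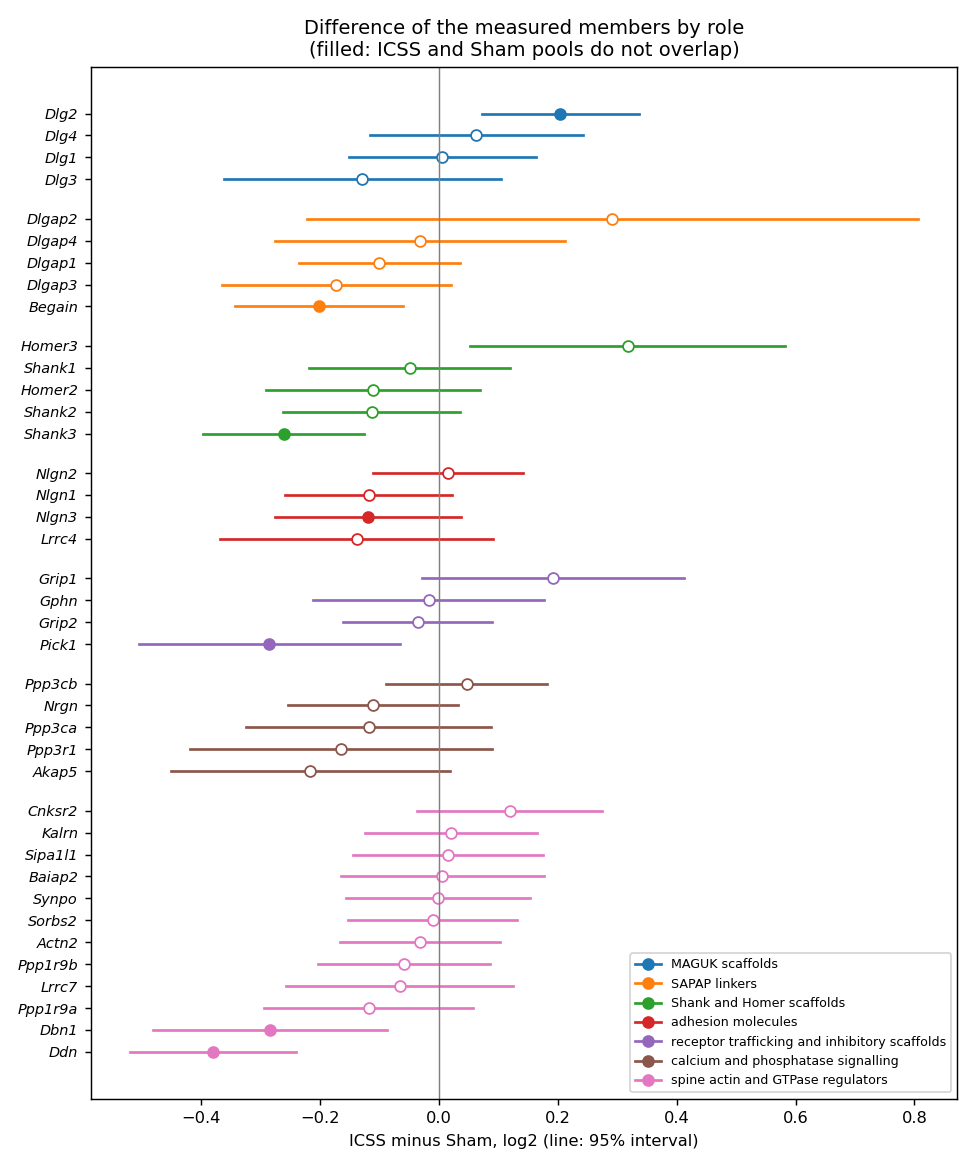
Difference between ICSS and Sham pools (ICSS minus Sham, log2, horizontal axis) of the 39 measured genes, grouped by role, with Begain among the Dlgap (SAPAP) linkers. Lines are 95% intervals from limma and filled points mark the 7 genes whose pools did not overlap, of which Dlg2 alone lies right of 0.

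Sequences upstream of the transcription start are given for the genes among these 7 with 1 listed start, since they are the ones whose pools separated and they differ in direction. Of the 39 genes, 32 matched a RefSeq promoter entry (build GRCr8). Ddn had no matching entry and Begain had 2 listed starts, so neither is printed. Each run is the 250 bases before the start, on the gene's own strand. Capitals mark matches, on either strand, of any of 6 motifs, each searched separately so that matches may overlap. The GC box was spelled GGGCGG and the promoter element named for its letters CCAAT. The core of the cyclic AMP response element was spelled TGACG and the E-box CACGTG. The shortened site of the Egr factors was spelled GCGTGGG and the TATA box TATAAA. Shank3 lies at chr7:122448073-122448322, Dbn1 at chr17:9155606-9155855, Pick1 at chr7:112677295-112677544, Nlgn3 at chrX:70469228-70469477 and Dlg2 at chr1:154539421-154539670, all on the plus strand.
Shank3 promoter: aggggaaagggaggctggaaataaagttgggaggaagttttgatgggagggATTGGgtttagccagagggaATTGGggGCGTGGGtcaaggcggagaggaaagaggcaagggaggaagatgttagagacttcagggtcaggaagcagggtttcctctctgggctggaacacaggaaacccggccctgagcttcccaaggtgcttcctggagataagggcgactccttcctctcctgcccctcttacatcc
Dbn1 promoter: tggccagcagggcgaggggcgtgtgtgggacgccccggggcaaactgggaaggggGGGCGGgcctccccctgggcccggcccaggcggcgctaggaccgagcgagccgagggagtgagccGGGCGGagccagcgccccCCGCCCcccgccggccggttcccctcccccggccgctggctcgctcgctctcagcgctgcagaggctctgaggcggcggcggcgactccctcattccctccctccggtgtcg
Pick1 promoter: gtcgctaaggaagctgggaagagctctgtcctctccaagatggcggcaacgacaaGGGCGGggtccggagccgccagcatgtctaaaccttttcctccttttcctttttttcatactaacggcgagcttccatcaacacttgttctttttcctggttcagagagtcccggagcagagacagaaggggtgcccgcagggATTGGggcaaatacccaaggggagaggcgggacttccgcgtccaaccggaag
Nlgn3 promoter: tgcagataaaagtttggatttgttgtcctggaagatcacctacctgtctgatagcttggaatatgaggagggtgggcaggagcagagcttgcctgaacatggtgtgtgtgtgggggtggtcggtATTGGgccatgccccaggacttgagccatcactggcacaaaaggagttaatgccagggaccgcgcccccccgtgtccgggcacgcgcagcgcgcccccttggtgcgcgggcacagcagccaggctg
Dlg2 promoter: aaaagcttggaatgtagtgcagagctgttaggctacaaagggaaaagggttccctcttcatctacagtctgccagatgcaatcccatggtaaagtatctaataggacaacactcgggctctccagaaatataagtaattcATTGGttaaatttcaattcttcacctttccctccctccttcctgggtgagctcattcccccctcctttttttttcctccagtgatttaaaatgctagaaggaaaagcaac
The window of Dbn1 held 3 GGGCGG matches and a GC content of 78.8%, while those of Shank3, Nlgn3 and Dlg2 held none, and Dlg2 had 42.4%. CCAAT was found in the windows of Shank3, Pick1, Nlgn3 and Dlg2, so it was present on both sides of the comparison. GCGTGGG was found once, in the window of Shank3, and none of the 5 windows held the cyclic AMP element core, the E-box or the TATA box. Over the 32 genes with an entry, the GC box was present in 53.1%, against 30.5% of all 33469 promoter entries. The share was 31.2% for CCAAT (34.0% of all entries), 9.38% for the cyclic AMP element core (18.2%), 9.38% for the E-box (5.59%), 12.5% for the Egr site (3.68%) and 6.25% for the TATA box (12.9%). The median GC content of the windows was 62.8% for these genes and 51.2% for all entries. In these motif shares a gene counted if any of its windows matched, while all entries were counted singly. Genes with several starts thus had more chances to match. A match of letters does not show binding.

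Ddn encodes dendrin, a protein of dendrites and spines whose mRNA is itself found in dendrites of rat neurons, and it had the smallest p of the set. Its log2 ratio was -0.029, 0.024, -0.033 and 0.17 in ICSS replicates 1 to 4, against 0.37, 0.38, 0.44 and 0.47 in Sham replicates 1 to 4. The Sham pools lay close together and well above the reference, and the ICSS pools lay near it. The difference was -0.38 (SE 0.063), or 1.30-fold lower, with a limma adjusted p of 0.0837, short of the threshold. Over all alternatives the adjusted p lay between 0.0576 and 0.438. The difference lay between -0.43 and -0.36 when single arrays were left out and was -0.34 without ICSS replicate 3 and Sham replicate 4. Ddn had 1 feature.

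Dbn1 encodes drebrin, which binds actin filaments in spines. Its log2 ratio was 0.061, 0.14, -0.15 and 0.18 in ICSS pools, against 0.35, 0.27, 0.24 and 0.51 in Sham pools. The groups did not overlap, ICSS replicate 3 was lowest and Sham replicate 4 highest. The difference was -0.28 (SE 0.088, limma adjusted p = 0.244), and -0.16 without those 2 pools. Of the 12 measured regulators of spine actin and small GTPases 8 were lower and 4 higher, with a median difference of -0.021. The other 10 overlapped between the groups. Cnksr2, a scaffold of Ras signalling, had 0.49, 0.70, 0.52 and 0.50 in ICSS pools, against 0.32, 0.54, 0.42 and 0.46 in Sham pools. These overlapped, and ICSS minus Sham was 0.12 (SE 0.070, limma adjusted p = 0.512), and 0.070 without ICSS replicate 2. Synpo, the synaptopodin gene of the spine apparatus, differed by -0.0015, Kalrn by 0.020, Sipa1l1, a Rap GTPase activator, by 0.015, and Baiap2, which encodes an actin-linked substrate of insulin receptor signalling, by 0.0058. Lrrc7, the densin gene, differed by -0.066, Sorbs2, which encodes an actin-linked adaptor, by -0.011 and Actn2, an alpha-actinin gene, by -0.032. Ppp1r9a and Ppp1r9b, which encode the phosphatase-targeting proteins neurabin and spinophilin, differed by -0.12 and -0.059.

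Shank3, a deep scaffold that joins the Dlgap layer to Homer and actin, had log2 ratios of -0.32, -0.22, -0.32 and -0.21 in ICSS pools, against -0.095, -0.0031, -0.033 and 0.097 in Sham pools. Every ICSS pool was below every Sham pool, with an SD of 0.061 in ICSS and 0.080 in Sham pools. The difference was -0.26 (SE 0.061, 95% interval -0.40 to -0.13), with a limma adjusted p of 0.155, and was -0.21 without ICSS replicate 3 and Sham replicate 4. Its paralogs lay nearer to 0, Shank2 at -0.11 (95% interval -0.26 to 0.035) with both features lower, and Shank1 at -0.049 (95% interval -0.22 to 0.12). Whether the paralogs differ from Shank3 was not tested. Homer3, which binds Shank proteins and metabotropic receptors, stood at 1.32, 1.35, 1.41 and 1.59 in ICSS pools, against 1.26, 1.33, 1.03 and 0.77 in Sham pools. The groups overlapped through Sham replicate 2, and the difference of 0.32 (SE 0.12, limma adjusted p = 0.32) was 0.21 without Sham replicate 4, the lowest of the Sham pools. Homer2 differed by -0.11 (95% interval -0.29 to 0.070). Of the 5 Shank and Homer genes 4 were lower, with a median difference of -0.11.

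Among the membrane-associated guanylate kinases, which tie receptors to the scaffold, Dlg2 was the gene without overlap. It had log2 ratios of 0.25, 0.35, 0.24 and 0.19 in ICSS pools, against -0.039, 0.050, 0.12 and 0.074 in Sham pools. All ICSS pools were above all Sham pools, and the difference was 0.20 (SE 0.059, limma adjusted p = 0.219, 1 feature). Dlg4, the most used marker of the postsynaptic density, had 11 features, all annotated to the same transcript record, so that they may repeat 1 probe. Its gene mean was 0.068, 0.43, 0.15 and 0.21 in ICSS pools, against 0.14, 0.23, 0.12 and 0.11 in Sham pools. The difference of 0.063 (SE 0.080, 95% interval -0.12 to 0.24) was -0.010 without ICSS replicate 2 and 0.11 without ICSS replicate 1. Dlg1 differed by 0.0058 and Dlg3 by -0.13 (95% interval -0.36 to 0.10), so that 3 of these 4 genes were higher.

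Begain, whose product binds the guanylate kinase domain of Dlg proteins, had log2 ratios of -0.21, -0.080, -0.21 and -0.032 in ICSS pools, against -0.0043, 0.058, 0.082 and 0.14 in Sham pools. The groups did not overlap, although ICSS replicate 4 and Sham replicate 1 were close. The difference was -0.20 (SE 0.063, limma adjusted p = 0.248). The Dlgap genes, which encode the linkers between Dlg and Shank proteins, overlapped between groups. Dlgap2 varied most of all genes in the set, with 0.25, 0.65, -0.067 and 0.48 in ICSS pools, against -0.40, -0.33, 0.25 and 0.63 in Sham pools. Its spread within each group exceeded the difference between them, which was 0.29 (SE 0.23, limma adjusted p = 0.629). Leaving out ICSS replicate 2 gave 0.18, and leaving out Sham replicate 1, 2 or 4 gave 0.15, 0.17 or 0.49. With both ICSS replicate 3 and Sham replicate 4 left out it was 0.62. Dlgap1 differed by -0.10, Dlgap3 by -0.17 and Dlgap4 by -0.032, and 4 of the 5 linker genes were lower.

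Pick1, whose product promotes the removal of AMPA receptors from the surface, had log2 ratios of -0.14, -0.36, -0.22 and -0.068 in ICSS pools, against -0.043, -0.063, 0.13 and 0.33 in Sham pools. The groups did not overlap, but ICSS replicate 4 and Sham replicate 2 were almost level. The difference was -0.29 (SE 0.098, limma adjusted p = 0.292) with all arrays and -0.20 without Sham replicate 4. Grip1, which anchors AMPA receptors, lay on the other side, at 0.13, 0.56, 0.41 and 0.53 in ICSS pools, against 0.11, 0.17, 0.21 and 0.36 in Sham pools. Its groups overlapped through ICSS replicate 1, and the difference was 0.19 (SE 0.099, limma adjusted p = 0.458). The 2 features of Grip1 disagreed in size, at 0.37 and 0.017. Grip2 differed by -0.036, and Gphn, the gephyrin gene of inhibitory synapses, by -0.017 (95% interval -0.21 to 0.18).

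The adhesion molecules of the postsynaptic membrane bind presynaptic partners across the cleft. Nlgn3, a neuroligin gene, had log2 ratios of -0.050, -0.059, -0.14 and -0.085 in ICSS pools, against -0.013, -0.048, -0.019 and 0.23 in Sham pools. The groups did not overlap, yet 3 Sham pools lay just above the ICSS pools and Sham replicate 4 far above them. The difference was -0.12 (SE 0.070, limma adjusted p = 0.509), and it was -0.056 without Sham replicate 4 and -0.038 without that pool and ICSS replicate 3. Nlgn1, the neuroligin of excitatory synapses, differed by -0.12 with both features lower, and Nlgn2, that of inhibitory synapses, by 0.015. Lrrc4, the gene of a netrin-G ligand, differed by -0.14 (95% interval -0.37 to 0.091) with all 3 features lower.

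**Figure D2:**
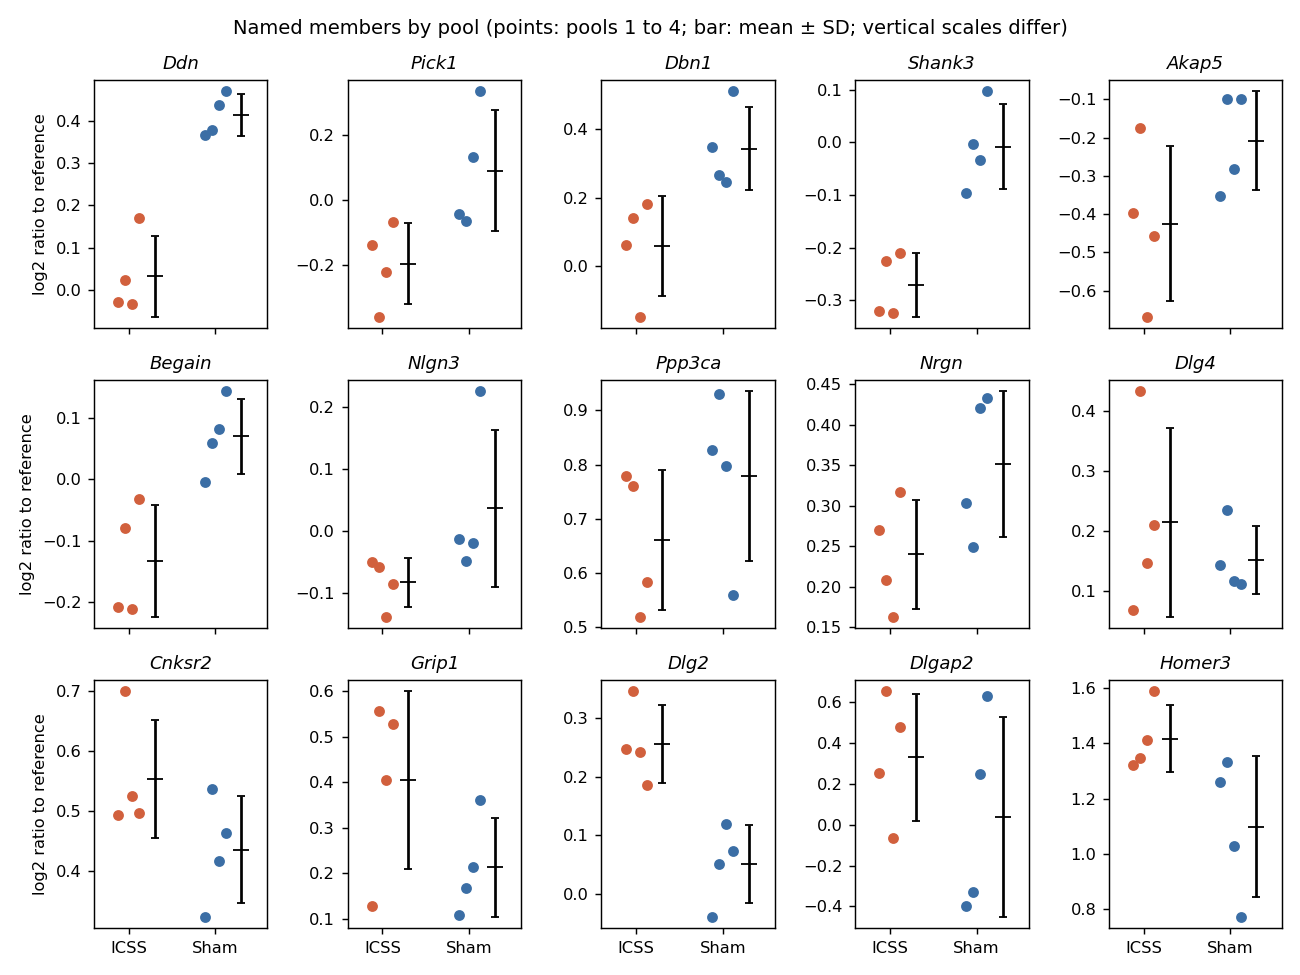
Log2 ratio to the common reference (vertical axis, scales differ) of the 15 genes described by pool, ordered from the most negative to the most positive difference. Points are ICSS pools (left) and Sham pools (right), and bars are the mean ± SD; Ddn shows the widest gap beside its spread, with ICSS pools up to 0.17 and Sham pools from 0.37.

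Calcium-dependent signalling at the postsynaptic density was represented by neurogranin, calcineurin and an anchor of calcineurin. Nrgn encodes neurogranin, which holds calmodulin at low calcium. It had log2 ratios of 0.27, 0.21, 0.16 and 0.32 in ICSS pools, against 0.30, 0.25, 0.42 and 0.43 in Sham pools. The groups overlapped, both features were lower, and the difference was -0.11 (SE 0.064, limma adjusted p = 0.502), and -0.059 without ICSS replicate 3 and Sham replicate 4. Akap5, which anchors calcineurin and protein kinase A near receptors, had -0.40, -0.18, -0.67 and -0.46 in ICSS pools, against -0.35, -0.099, -0.28 and -0.098 in Sham pools. The groups overlapped, ICSS replicate 3 was lowest, and the difference of -0.22 (SE 0.10, limma adjusted p = 0.428) was -0.14 without ICSS replicate 3 and -0.099 without that pool and Sham replicate 4. Ppp3ca, the main catalytic subunit gene of calcineurin in brain, stood at 0.78, 0.76, 0.52 and 0.58 in ICSS pools, against 0.83, 0.93, 0.80 and 0.56 in Sham pools. These also overlapped, with a difference of -0.12 (SE 0.092, limma adjusted p = 0.626). Leaving out ICSS replicate 3 gave -0.071, leaving out Sham replicate 2 gave -0.067 and leaving out Sham replicate 4 gave -0.19, while the median over its features gave -0.022. Ppp3cb, a further catalytic subunit, differed by 0.047 and Ppp3r1, the regulatory subunit, by -0.16. Of these 5 genes 4 were lower, with a median difference of -0.12.

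Different features of a gene did not always give the same direction. Of 20 genes with 2 or more features, 10 had all of them on one side and 10 on both sides. In Ppp3cb, 1 of 4 features had log2 ratios of 0.049, 0.011, 0.040 and -0.0010 in ICSS pools, against -0.37, -0.33, -0.22 and -0.20 in Sham pools, with no overlap. With each feature as its own unit, its difference was 0.30 (SE 0.060, limma adjusted p = 0.0945), while the other features of Ppp3cb gave -0.050, -0.15 and 0.084. The 5 features of Ppp3ca ranged from -0.31 to 0.041, with 4 lower. In Ppp1r9a 1 feature gave -0.25 without overlap and the other 0.018. The gene means of Ppp3cb and Ppp1r9a overlapped between the groups. Single features without overlap were not counted over the whole array, and among all units the share was 7.8%. Which transcripts these features detect was not tested. The remaining 19 genes, among them all 7 without overlap, had 1 feature each.

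**Figure D3:**
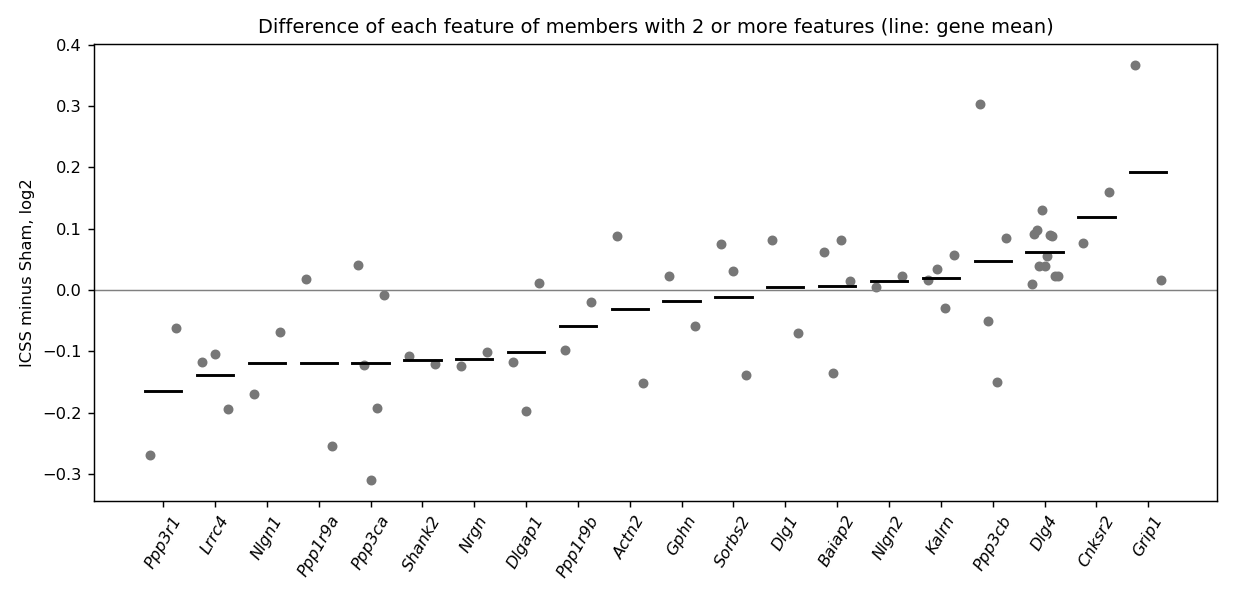
Difference between ICSS and Sham pools (ICSS minus Sham, log2, vertical axis) of every feature (grey points) of the 20 genes with 2 or more features, ordered by the gene mean (black line). The features of Ppp3cb spread from -0.15 to 0.30 around a gene mean of 0.047, while the 11 features of Dlg4 lie between 0.010 and 0.13.

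Relative to the reference, 14 of the 39 genes were above 0 in all 8 pools, against 12.5% of all units. A further 6 were below 0 in all 8 pools, against 16.7% of all units. Among the first, Homer3 averaged 1.42 ± 0.12 in ICSS and 1.10 ± 0.25 in Sham pools, and Ppp3ca 0.66 ± 0.13 and 0.78 ± 0.16 (SD, n = 4 each). Among the second, Dlg1 averaged -0.36 ± 0.10 in ICSS and -0.37 ± 0.090 in Sham pools, and Grip2 -0.33 ± 0.058 and -0.30 ± 0.057 (SD, n = 4 each). The dyes were not swapped, so a dye effect cannot be told apart from these ratios, whereas it is shared by ICSS and Sham pools.

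The mean over the 39 genes was 0.040, 0.15, -0.0083 and 0.10 in ICSS replicates 1 to 4, against 0.054, 0.11, 0.15 and 0.18 in Sham replicates 1 to 4. The groups overlapped, and the difference of -0.055 was smaller than the spread between pools of a group (pooled SD 0.062). Among ICSS pools, replicate 3 was lowest for 20 of the 39 genes (25.1% of all units), replicate 1 for 14 (18.3%), replicate 4 for 4 (32.8%) and replicate 2 for 1 (23.7%). Among Sham pools, replicate 4 was highest for 21 (27.7% of all units), replicates 2 and 3 for 9 each (25.5% and 22.6%) and replicate 1 for 0 (24.2%). ICSS replicate 3 and Sham replicate 4 had the highest and the lowest oligodendrocyte marker means given above. Each of the 5 oligodendrocyte genes was higher on average in ICSS pools, where the list mean ranged from -0.24 to 0.39, against -0.91 to 0.042 in Sham pools. Their part in the synaptic values was not tested. In these tissue pools fewer cells of a type and less RNA per cell cannot be told apart.

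The 4 markers of CA1 pyramidal neurons (Wfs1, Fibcd1, Mpped1 and Pou3f1) were all lower in ICSS pools, with a list mean of 0.18, 0.55, 0.22 and 0.27, against 0.49, 0.72, 0.56 and 0.64 in Sham pools. None passed the threshold (limma adjusted p of 0.312 to 0.543), and their part in the synaptic values was not tested. The pan-neuronal list of 6 genes overlapped, with ICSS pools between 0.12 and 0.28 and Sham pools between 0.10 and 0.34. The CA3 list overlapped too, with ICSS pools between 0.90 and 1.06 and Sham pools between 0.61 and 1.13. Of 3 dentate granule cell markers, C1ql2 was lower without overlap, at -0.58 (SE 0.11, limma adjusted p = 0.123), and the other two were higher. The list means of astrocytes (0.029 to 0.22 in ICSS, -0.072 to 0.13 in Sham pools), microglia (-0.29 to 0.084 and -0.36 to 0.41), endothelium (-0.17 to 0.014 and -0.15 to -0.0097) and choroid plexus (-0.97 to 0.17 and -1.32 to 0.89) overlapped. So did those of interneurons (-0.61 to -0.34 and -0.76 to -0.17), neocortex (-0.21 to -0.12 and -0.16 to -0.094) and thalamus (-0.93 to -0.65 and -0.99 to -0.78). Sham replicate 1 alone set the upper end of the Sham pools for choroid plexus and microglia. It was at 0.89 for choroid plexus, with the other Sham pools between -1.32 and -0.93. For microglia it was at 0.41, with the other Sham pools between -0.36 and -0.035. The part of this pool's make-up in the synaptic values was not tested.

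**Figure D4:**
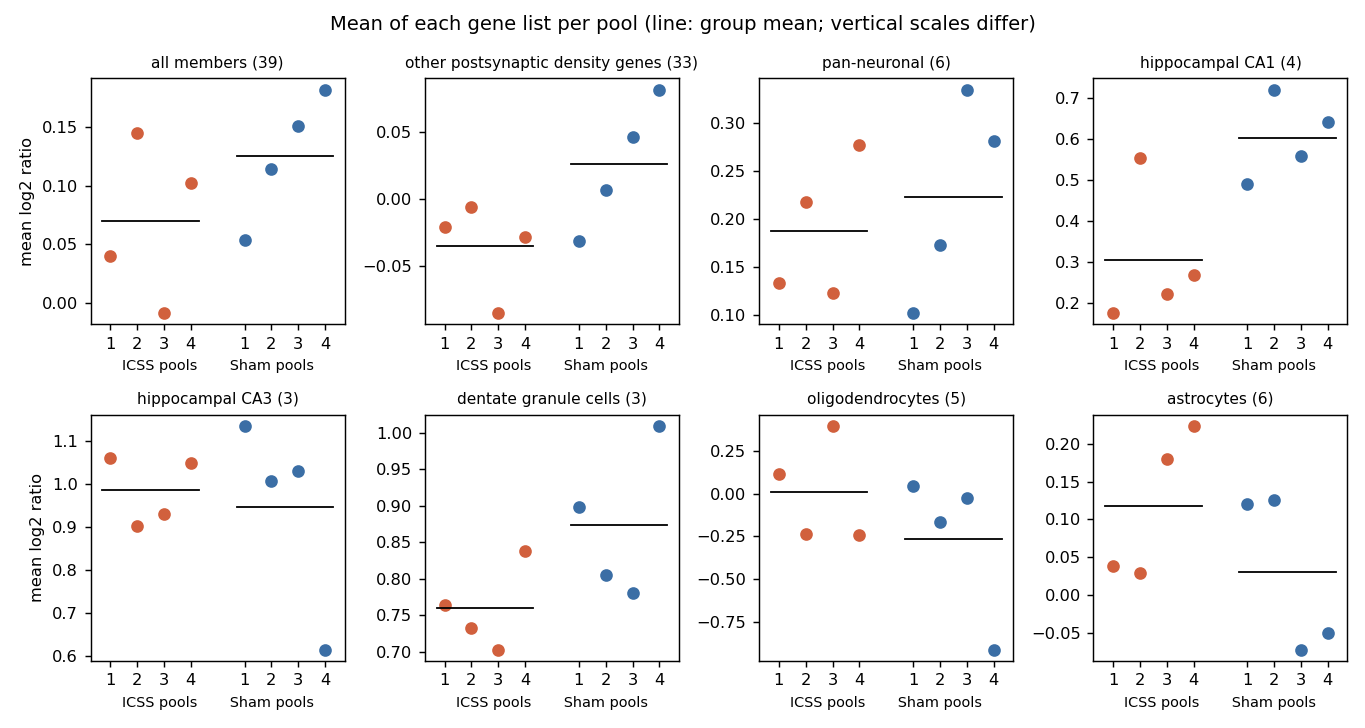
Mean log2 ratio to the reference (vertical axis, scales differ) of 8 gene lists in each of the 4 ICSS pools (left in each panel) and 4 Sham pools (right), with the number of genes in brackets and the group mean as a line. The 39 postsynaptic genes overlap between groups, 3 of 4 ICSS pools lie below all Sham pools for the CA1 markers, and Sham replicate 4 is lowest for the oligodendrocyte genes at -0.91.

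Other genes of the same structures were read from 3 lists, and none of their 69 measured genes passed the threshold. Of 33 other postsynaptic density genes 22 were lower and 11 higher, with a median of -0.039, against 0.0078 over all units. At an unadjusted limma p below 0.05 there were 6 lower (6.03% of all units) and 4 higher (6.61% of all units). In 6 genes the pools did not overlap (7.8% of all units), 4 of them lower (3.66% of all units). Lrrtm3, a synaptic adhesion gene, differed by -0.41 (SE 0.11, limma adjusted p = 0.193), Adgrb3, an adhesion receptor gene, by -0.26 (SE 0.070), and Cacng8, which encodes an auxiliary subunit of AMPA receptors, by -0.26 (SE 0.075). Cacng8 had log2 ratios of 0.19, 0.20, 0.22 and 0.19 in ICSS pools, against 0.36, 0.43, 0.38 and 0.68 in Sham pools. Homer1, whose short form is induced by activity, was higher, at -0.11, 0.25, -0.13 and 0.00042 in ICSS pools, against -0.31, -0.20, -0.25 and -0.27 in Sham pools. Its difference was 0.26 (SE 0.085, limma adjusted p = 0.264) over 11 features.

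Of 13 other genes of the calcineurin pathway 9 were higher and 4 lower, with a median of 0.055, and 1 had an unadjusted limma p below 0.05 (12.6% of all units). This was Rcan2, which encodes a calcineurin inhibitor, at -0.28, -0.32, -0.28 and -0.36 in ICSS pools, against -0.63, -0.68, -0.65 and -0.83 in Sham pools. The groups were far apart beside their spread, with a difference of 0.39 (SE 0.060, limma adjusted p = 0.0769) over 4 features. With each feature as its own unit, 1 feature of Rcan2 passed, at 0.54 (SE 0.069, limma adjusted p = 0.0271). Cabin1, another inhibitor of calcineurin, differed by -0.19, Nfatc3, a transcription factor that calcineurin activates, by 0.13 and Ppp3cc, the third catalytic subunit, by -0.066, with limma adjusted p of 0.419 to 0.693. Of 23 further spine actin regulators 13 were lower and 10 higher, with a median of -0.0088. Of these, 4 had an unadjusted limma p below 0.05 (12.6% of all units) and 2 did not overlap (7.8% of all units). Limk2, a kinase of the actin-severing protein cofilin, differed by -0.26 and Wasf1, an activator of actin branching, by -0.18, both without overlap. Actg1, a cytoplasmic actin gene, differed by -0.16 and Pfn2, a profilin gene, by 0.14, and the limma adjusted p of these 4 genes lay between 0.243 and 0.368.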

How the data were processed

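RNA of 8 hippocampal pools was hybridised with a common reference on 2-colour arrays. The authors deposited 1 log ratio per feature and array for 45220 features. It was taken as log2, since limma is named, without a version, in the submitters' processing notes. Per the labels the pools were in Cy5, so the ratio was read as Cy5 over Cy3, and hippocampal markers lay above and thalamic markers below 0. Every array had a median absolute log ratio of 0.132, so the values were already scaled to equal spread. The normalization steps themselves, not given in the sources used here, may also have included a filter. No value was missing. Spot intensities were not used here, so dim spots were not filtered, and array medians lay between -0.032 and 0.016.

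Features were named through the platform annotation with symbols updated by Entrez identifier to RefSeq (GRCr8, for names and promoters only). Of the features, 25353 had 1 symbol (25306 matched a current gene), 48 had several and 19819 had none. Features of a gene were averaged, giving 14871 genes and 19867 unnamed probes. ICSS was compared with Sham by limma 3.58.1 (R 4.3.3), using lmFit and eBayes without covariates. Tests were two-sided, the prior had 3.83 degrees of freedom, and p-values were adjusted over all units by Benjamini-Hochberg, with calls below 0.05. The procedure was also run on simulated data with independent noise in each unit. That setting holds no effects shared by the units of a pool, so it does not show how such effects act on the calls. Alternatives were other scalings, array weights, robust moderation, other units, a replicate block and leaving out arrays. The genes and lists were chosen with earlier results of these data known. Values by pool are given for genes without overlap, the 6 largest differences in each direction, Dlg4, Shank3, Nrgn, Ddn and Ppp3ca. Of each other pathway list, the 4 genes of smallest p are named. Wfs1, Mpped1, Fibcd1, Pou3f1 and C1ql2, and the other genes given by difference alone, lie outside that rule.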

Additional observations from a re-analysis of the deposited data

Results flagged for a closer look

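A single pool stood far from the other 3 of its group, by Dixon's 95% criterion, in 6 of the 78 groups examined (39 genes in ICSS and in Sham pools), or 7.69%, where chance flags about 1 group in 20. In ICSS replicate 2, Ppp3r1 was at 0.61 and Cnksr2 at 0.70, above the nearest ICSS pools at 0.26 and 0.52. In ICSS replicate 3, Ppp1r9b was at 0.10, below the next ICSS pool at 0.24. In Sham replicate 4, Nlgn3 was at 0.23, above the nearest Sham pool at -0.013, and Baiap2 at 0.096, below the nearest at 0.20. In Sham replicate 2, Dlg1 was at -0.23, above the nearest Sham pool at -0.40.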

How the results depend on the processing

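The count of called genes in the set was 0 under each of 19 alternatives. Of the 285 values of the 15 genes given by pool under them, 284 kept their direction and stayed short of the threshold. The exception was Dlg4, at -0.010 without ICSS replicate 2, and its values with 1 array left out ranged from -0.010 to 0.11. Under robust moderation, the replicate block, named genes only and features as units, each difference equals the main one by construction. So does the median over features in genes with 1 or 2 features. Scaling the arrays to equal spread also left the differences nearly unchanged. In these settings the direction could not change. The mean difference over the set ranged from -0.080 to -0.029 with 1 array left out. Over all units 16 were called, 34 with array quality weights, 53 with features as units and between 0 and 153 with 1 array left out. By pool left out, ICSS replicate 1 gave 153, ICSS replicates 2 and 3 gave 0 each, and ICSS replicate 4 gave 6, while Sham replicates 1 and 3 gave 1 each, Sham replicate 2 gave 10 and Sham replicate 4 gave 14. The cause was not tested. Of the other pathway genes 0 were called, and 1, Rcan2, with features as units. The groups share replicate numbers, but same-numbered pools did not deviate together (r = -0.053 to 0.058) and 0 of 8 arrays correlated best with their own number. With the replicate number as a block, 0 units were called and 0 genes of the set. Dividing each array by its standard deviation, leaving out ICSS replicate 3 and Sham replicate 4 together (1 unit called) and all alternatives for the other pathway genes were chosen after seeing the data. Spot intensities were not used here, so whether dim features limit a value is unknown.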
